A study of Mus musculus with 6 samples.

Results

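Expression of 9 megakaryocyte and platelet genes (Mmrn1, Vwf, Pf4, Selp, Itga2b, Itgb3, Gp1bb, Gp9 and Plek) was examined in long-term haematopoietic stem cells (LT-HSC) of mice. The members were found by gene symbol. All 9 were among the 17997 genes of the deposited table, and all 9 were among the 12657 genes tested, which had at least 1 CPM in at least 2 libraries. In both mutant genotypes Mmrn1 and Selp were far below their level in the MxCRE cells, while the genes of the fibrinogen receptor and of the von Willebrand factor receptor did not pass the test, Itga2b doing so with a replicate block alone. Plek was higher in NPMc+/Flt3-ITD cells than in either of the other genotypes.

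Megakaryocytes are the large bone marrow cells that shed platelets. They fill the alpha granules of platelets with adhesion proteins and chemokines, and they place the receptors for fibrinogen and for von Willebrand factor on the platelet surface. Transcripts of several of these genes, among them Vwf, Selp, Itga2b and Pf4, are also found in stem cells, and Vwf is known as a marker of mouse stem cells that are biased towards platelet production.

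The LT-HSC were sorted from bone marrow of C57BL/6 mice aged 8 to 11 weeks, and polyadenylated RNA was sequenced after SMART-seq amplification. There were 3 genotypes with 2 libraries each, which the series describes as biological replicates. NPMc_Flt3ITD libraries came from NPMc+/Flt3-ITD mice, Flt3ITD libraries from Flt3-ITD mice, and Mx libraries, the reference, from MxCRE mice. NPMc+ is a mutant nucleophosmin that is displaced to the cytoplasm, Flt3-ITD is an internal tandem duplication that makes the cytokine receptor FLT3 active without its ligand, and MxCRE is a Cre recombinase driven by the interferon-inducible Mx promoter. The labels state neither whether the mutant mice also carried MxCRE nor how Cre was induced, nor the zygosity of the alleles, the markers of the sort or the number of animals behind a library.

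The whole reads recovered from the table numbered 27599145 and 37038893 in NPMc_Flt3ITD, 15618802 and 33346210 in Flt3ITD and 27088450 and 19287765 in Mx, so that 1 read was worth between 0.0289 and 0.0657 CPM (normalised counts, scaled to the effective size of the library). The stem cell markers Kit (487 to 798 CPM), Procr (21.5 to 87.6 CPM) and Slamf1 (26.5 to 72.7 CPM) were present in all 6 libraries. The table gives 1 value per gene and does not separate alleles, so the genotypes could not be checked from it. Genes that define mature megakaryocytes and platelets were unequal in level. F2rl3, a thrombin receptor, lay between 30.9 and 62.6 CPM, Gp5 between 17.0 and 59.7 CPM, Gp1ba between 5.09 and 21.9 CPM and Treml1 between 5.09 and 17.4 CPM. Tubb1 lay between 0.424 and 2.63 CPM, Clec1b between 0 and 1.36 CPM and P2ry12 between 0 and 1.35 CPM, and Gp6 was not listed. The 9 listed genes of that 10-gene list summed to between 85.9 and 160.2 CPM in NPMc_Flt3ITD and 79.9 and 119.8 CPM in Flt3ITD, against 98.4 and 137.8 CPM in Mx. None of the 7 tested passed in any comparison. Among all tested genes, 1.17% passed in NPMc_Flt3ITD against Mx, 4.55% in Flt3ITD against Mx and 1.18% between the mutants. In such bulk samples, fewer cells that express a gene and less RNA of it per cell cannot be told apart.

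Promoter sequences were at hand for 7 of the 9 members, in RefSeq's GRCm38.p6 table, while Vwf and Itgb3 had no entry. The windows hold the 250 bases before the start site, 5′ to 3′ on the gene's strand. They are shown for Selp and Plek, which passed the test in opposite directions, and for Itga2b and Gp9, receptor genes that did not pass. Capitals mark the letters AGGAAG or CGGAAG, forms of the site that ETS factors such as FLI1 bind, and the letters TGTGGT, the core that RUNX1 binds. They are marked on either strand, so that a site on the opposite strand reads CTTCCT or ACCACA. Other forms of the ETS site, such as GGAA with other neighbours, were not searched or marked.
Selp, chr1:164115014-164115263, plus strand: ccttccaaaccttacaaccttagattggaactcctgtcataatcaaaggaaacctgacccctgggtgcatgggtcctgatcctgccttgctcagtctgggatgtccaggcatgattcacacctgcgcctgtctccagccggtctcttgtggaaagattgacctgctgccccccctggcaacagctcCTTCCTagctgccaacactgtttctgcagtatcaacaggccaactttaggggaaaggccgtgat
Plek, chr11:17008719-17008968, minus strand: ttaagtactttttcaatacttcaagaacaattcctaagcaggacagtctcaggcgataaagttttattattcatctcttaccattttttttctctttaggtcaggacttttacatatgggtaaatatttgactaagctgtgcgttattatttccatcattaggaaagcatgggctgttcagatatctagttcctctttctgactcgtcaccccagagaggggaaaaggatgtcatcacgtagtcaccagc
Itga2b, chr11:102469884-102470133, minus strand: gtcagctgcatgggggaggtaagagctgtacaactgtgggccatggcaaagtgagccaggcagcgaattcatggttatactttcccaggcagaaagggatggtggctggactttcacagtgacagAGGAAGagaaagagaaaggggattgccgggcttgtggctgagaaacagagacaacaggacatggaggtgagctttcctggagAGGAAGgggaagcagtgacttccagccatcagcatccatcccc
Gp9, chr6:87777820-87778069, plus strand: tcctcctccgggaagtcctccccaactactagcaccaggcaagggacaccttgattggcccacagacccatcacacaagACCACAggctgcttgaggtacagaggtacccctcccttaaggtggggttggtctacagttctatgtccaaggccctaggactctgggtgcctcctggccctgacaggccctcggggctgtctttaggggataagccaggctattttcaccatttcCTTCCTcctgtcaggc
The ETS letters stood 64 to 59 bases before the start of Selp, 125 to 120 and 43 to 38 bases before that of Itga2b, and 16 to 11 bases before that of Gp9. Pf4 (9 to 4 bases before the start) and Gp1bb (90 to 85 bases) held them too. That made 5 of 7 members, beside 39.2% of the 32851 promoters in the table. The RUNX letters were found in Gp9 alone, 171 to 166 bases before its start, beside 14% of all promoters. The GATA letters AGATAA or TGATAA were found in Mmrn1 alone, beside 16.6%, and the AP-1 type letters TGAGTCA in none of the 7, beside 4.46%. The start used for Mmrn1 lay 159 bases from the nearest start in the GENCODE annotation, so its window may not be the promoter in use. For every other member with a window the nearest GENCODE start was at most 16 bases away. None of these 4 kinds of letters was in the Plek window, and no matches overlapped each other. The letters did not separate the members that passed the test from those that did not, since Selp and Itga2b both carried the ETS letters.

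Among the proteins that megakaryocytes store in alpha granules, Mmrn1 encodes multimerin 1, a carrier of coagulation factor V. Mmrn1 had 16.5 and 12.6 CPM in NPMc_Flt3ITD and 23.0 and 19.0 CPM in Flt3ITD, against 152 and 143 CPM in Mx. Both mutant genotypes lay far below every Mx library, and the 2 NPMc_Flt3ITD libraries lay below both Flt3ITD libraries. The mean was 14.5 ± 2.73 CPM in NPMc_Flt3ITD and 21.0 ± 2.83 CPM in Flt3ITD, against 147.7 ± 6.61 CPM in Mx (SD, n = 2 each). In NPMc_Flt3ITD this was 9.84% of the Mx mean, a log2 fold change of -3.27 ± 0.22 on log2(CPM + 1) (SE; 95% interval -3.78 to -2.76, limma adjusted p = 0.000906). Only 2 of the 12657 tested genes had a smaller p in that comparison. In Flt3ITD against Mx the log2 fold change was -2.76 (95% interval -3.27 to -2.25, limma adjusted p = 0.00728), and no tested gene had a smaller p. This call was lost without Mx replicate 1 (limma adjusted p = 0.0507) and without a filter on low values (0.0567). The further difference between the mutants, -0.51 on the log2 scale, did not pass (limma adjusted p = 0.265).

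Vwf encodes von Willebrand factor, the large adhesive protein that tethers platelets to injured vessel walls and carries factor VIII. Vwf had 26.8 and 3.09 CPM in NPMc_Flt3ITD and 29.1 and 16.0 CPM in Flt3ITD, against 62.1 and 56.9 CPM in Mx. All 4 mutant libraries were below both Mx libraries, but the NPMc_Flt3ITD libraries differed 8.68-fold from each other. The mean was 15.0 ± 16.8 CPM in NPMc_Flt3ITD and 22.5 ± 9.25 CPM in Flt3ITD, against 59.5 ± 3.67 CPM in Mx (SD, n = 2 each). With this spread the log2 fold change of -2.50 ± 0.73 in NPMc_Flt3ITD against Mx did not pass (SE; 95% interval -4.16 to -0.84, limma adjusted p = 0.177). It passed with the replicate number as a block (limma adjusted p = 0.0119). Leaving out NPMc_Flt3ITD replicate 1 gave -3.88 on the log2 scale, which passed (limma adjusted p = 0.0168), and leaving out NPMc_Flt3ITD replicate 2 gave -1.12, which did not (0.433). In Flt3ITD against Mx, the value of -1.42 did not pass either (limma adjusted p = 0.276, and 0.0572 with the block), and neither did the -1.08 between NPMc_Flt3ITD and Flt3ITD (limma adjusted p = 0.471).

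Pf4 encodes platelet factor 4, a chemokine of the alpha granule that binds heparin. Pf4 had 105 and 42.4 CPM in NPMc_Flt3ITD and 34.99 and 57.3 CPM in Flt3ITD, against 59.2 and 71.9 CPM in Mx. The NPMc_Flt3ITD libraries held the highest and the second lowest value and overlapped both other genotypes, while both Flt3ITD libraries lay below both Mx libraries. The log2 fold change was 0.04 in NPMc_Flt3ITD against Mx (limma adjusted p = 0.983), -0.53 in Flt3ITD against Mx (limma adjusted p = 0.451) and 0.57 in NPMc_Flt3ITD against Flt3ITD (limma adjusted p = 0.489).

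Selp encodes P-selectin, a granule membrane protein that reaches the surface of activated platelets and endothelial cells and binds leukocytes. Selp had 20.5 and 30.7 CPM in NPMc_Flt3ITD and 22.3 and 29.0 CPM in Flt3ITD, against 122 and 131 CPM in Mx. The mutant genotypes overlapped, and both lay far below Mx. The mean was 25.6 ± 7.21 CPM in NPMc_Flt3ITD and 25.7 ± 4.72 CPM in Flt3ITD, against 126.6 ± 5.89 CPM in Mx (SD, n = 2 each). Selp was thus at 20.2% of the Mx mean in NPMc_Flt3ITD, with a log2 fold change of -2.29 ± 0.25 (SE; 95% interval -2.85 to -1.73, limma adjusted p = 0.00496). In Flt3ITD it was at 20.3% of the Mx mean, with a log2 fold change of -2.27 (95% interval -2.83 to -1.71, limma adjusted p = 0.00747), a call that was lost without Mx replicate 1 or without Flt3ITD replicate 1 (limma adjusted p up to 0.0589). Between NPMc_Flt3ITD and Flt3ITD the difference was -0.02 (95% interval -0.58 to 0.54, limma adjusted p = 0.975), an interval that holds differences of either sign. The comparisons of NPMc_Flt3ITD and of Flt3ITD with Mx share the Mx libraries, so their values for Mmrn1 and Selp are not independent of each other. A transcript that overlaps Selp on the opposite strand, Gm16548, was at 0 to 1.72 CPM.

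Endothelial cells also make Vwf, Selp and Mmrn1, so their defining genes were read in the same libraries. Cdh5 lay between 0 and 0.0634 CPM, Sele did not exceed 0.189 CPM, and Cldn5 was at 0 in 3 libraries. Emcn was present, with 9.80 and 19.9 CPM in NPMc_Flt3ITD and 6.30 and 14.1 CPM in Flt3ITD, against 25.61 and 26.01 CPM in Mx. Kdr had 0.748 and 0.751 CPM in NPMc_Flt3ITD and 0.131 and 0.887 CPM in Flt3ITD, against 1.88 and 6.22 CPM in Mx, and Sox18 had 0.224 and 0 CPM in NPMc_Flt3ITD and 1.71 and 1.24 CPM in Flt3ITD, against 2.36 and 5.84 CPM in Mx. Plvap went the other way in Flt3ITD, with 6.50 and 4.18 CPM, against 1.99 and 1.41 CPM in Mx. In NPMc_Flt3ITD it had 2.92 and 0.376 CPM. Pecam1 was higher in NPMc_Flt3ITD, with 91.1 and 95.5 CPM, against 65.0 and 67.6 CPM in Mx. In Flt3ITD it had 60.1 and 60.9 CPM. Of the 17 endothelial genes 14 were listed, and they summed to between 174 and 198 CPM in NPMc_Flt3ITD and 117.5 and 139.5 CPM in Flt3ITD, against 209 and 229 CPM in Mx, most of it from Tie1 and Pecam1, which stem cells express too. None of the 7 tested passed in any comparison. Among all tested genes, 1.17% passed in NPMc_Flt3ITD against Mx, 4.55% in Flt3ITD against Mx and 1.18% between the mutants. At such shares, no call among 7 genes says little about them. Their median log2 fold change was -0.84 in NPMc_Flt3ITD against Mx and -0.96 in Flt3ITD against Mx, beside 0.01 and 0.0051 over all tested genes. The 20 LT-HSC identity genes summed to between 2670 and 3108 CPM in NPMc_Flt3ITD and 2404 and 2441 CPM in Flt3ITD, against 3410 and 3857 CPM in Mx, and 5 of them fell in NPMc_Flt3ITD (beside 0.656% of all tested genes) and 8 in Flt3ITD (beside 2.43%), each against Mx. The 10 genes of multipotent progenitors had sums of 2625 to 2856 CPM in NPMc_Flt3ITD and 1861 to 2676 CPM in Flt3ITD, against 846 to 1057 CPM in Mx. Of these 10, Cd48, Plac8 and Ctsg rose in both mutants against Mx and Mpo in Flt3ITD, while the others did not pass. Among all tested genes, 0.514% rose in NPMc_Flt3ITD against Mx and 2.12% in Flt3ITD against Mx. Flt3ITD values of Cd27 (81.9 and 127 CPM) lay below those in Mx (147 and 178 CPM). The part of these differences in the values of Mmrn1, Selp and Vwf was not tested.

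**Figure D1:**
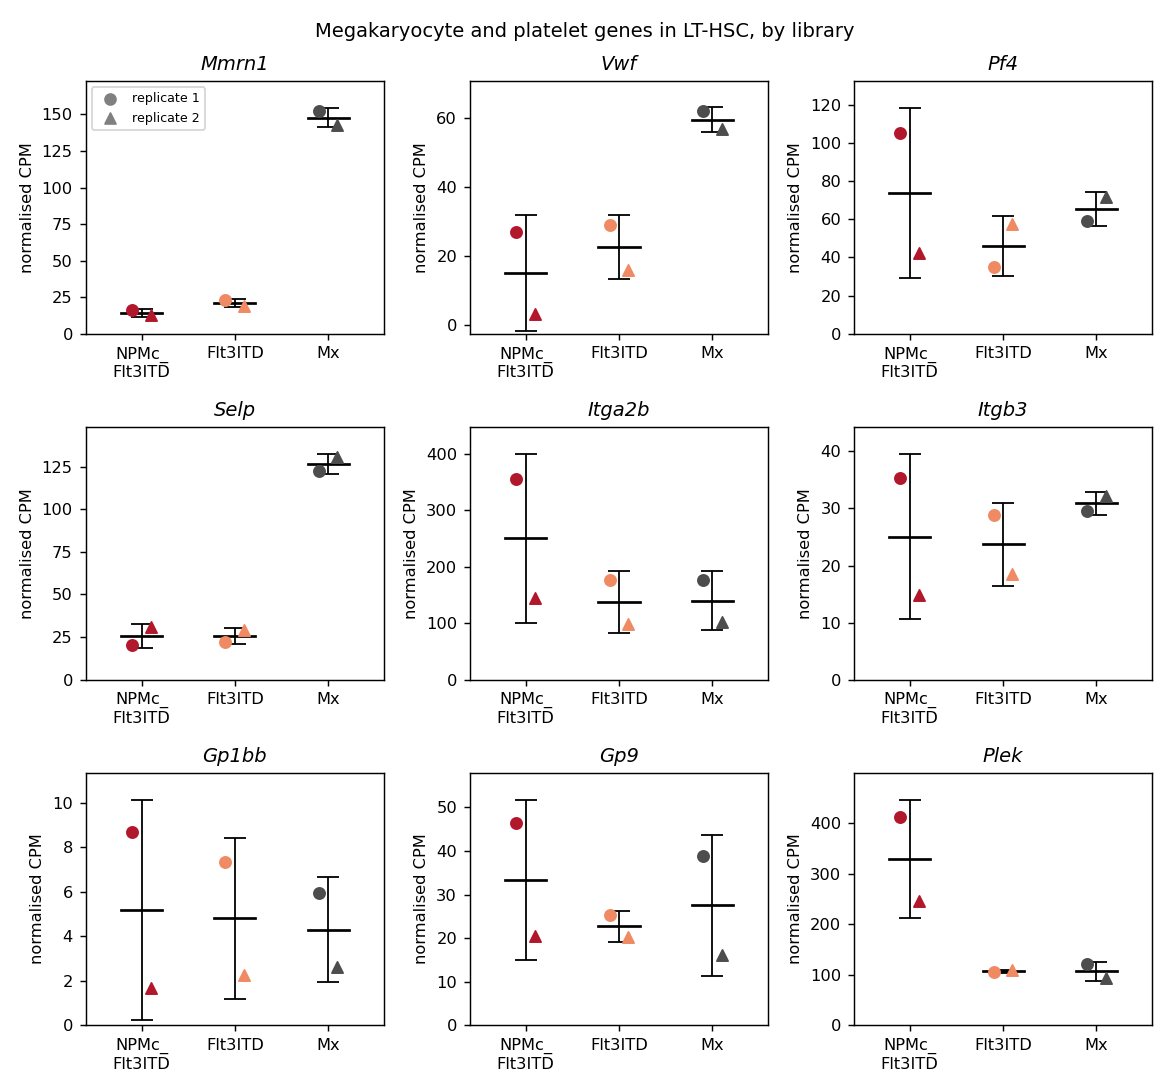
Normalised CPM (vertical axes, linear) of the 9 genes in each library, by genotype, with replicate 1 as circles and replicate 2 as triangles; horizontal bars are means and error bars 1 SD of 2 libraries. Mmrn1 and Selp lie at or below 30.7 CPM in all mutant libraries and at or above 122 CPM in Mx, and both NPMc_Flt3ITD libraries of Plek lie above the other 4.

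The fibrinogen receptor of platelets is the integrin alphaIIb beta3, whose alpha chain, CD41, is encoded by Itga2b and marks megakaryocytes as well as early blood progenitors. Itga2b had 356 and 144 CPM in NPMc_Flt3ITD and 177 and 98.8 CPM in Flt3ITD, against 177 and 103 CPM in Mx. The first replicate was the higher in every genotype, and replicate 2 of NPMc_Flt3ITD lay between the replicates of the other genotypes. The mean was 250.3 ± 150 CPM in NPMc_Flt3ITD and 138 ± 55.3 CPM in Flt3ITD, against 140.3 ± 52.6 CPM in Mx (SD, n = 2 each). The log2 fold change was 0.74 ± 0.44 in NPMc_Flt3ITD against Mx (SE; limma adjusted p = 0.583) and 0.77 in NPMc_Flt3ITD against Flt3ITD (limma adjusted p = 0.392). With the replicate number as a block both passed, at limma adjusted p = 0.0167 and 0.00929. In Flt3ITD against Mx the value was -0.03 (limma adjusted p = 0.974, 95% interval -1.04 to 0.97).

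Itgb3 encodes the beta3 chain, which also pairs with the alphaV chain in other cells. Itgb3 had 35.3 and 14.8 CPM in NPMc_Flt3ITD and 28.9 and 18.5 CPM in Flt3ITD, against 29.5 and 32.3 CPM in Mx. The NPMc_Flt3ITD libraries held both the highest and the lowest value of the 6. None of the comparisons passed: the log2 fold change was -0.41 in NPMc_Flt3ITD against Mx (limma adjusted p = 0.761), -0.40 in Flt3ITD against Mx (limma adjusted p = 0.573) and -0.01 in NPMc_Flt3ITD against Flt3ITD (limma adjusted p = 0.992).

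The von Willebrand factor receptor of platelets joins the products of Gp1ba, Gp1bb, Gp9 and Gp5. Gp1bb, the beta chain of glycoprotein Ib, had 8.68 and 1.68 CPM in NPMc_Flt3ITD and 7.35 and 2.25 CPM in Flt3ITD, against 5.96 and 2.64 CPM in Mx. In each genotype replicate 1 was several times replicate 2, and the genotypes overlapped. The log2 fold changes lay between -0.03 and 0.05 in the 3 comparisons, with limma adjusted p of at least 0.974. In the GENCODE annotation Gp1bb overlaps Sept5 on the same strand, and the 2 genes can share reads. Sept5 itself was at 0.722 to 2.40 CPM.

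Gp9 encodes glycoprotein IX, which the receptor needs to reach the surface. Gp9 had 46.4 and 20.5 CPM in NPMc_Flt3ITD and 25.2 and 20.2 CPM in Flt3ITD, against 38.9 and 16.1 CPM in Mx. The genotypes overlapped again, with log2 fold changes of 0.29 in NPMc_Flt3ITD against Mx, -0.15 in Flt3ITD against Mx and 0.44 in NPMc_Flt3ITD against Flt3ITD (limma adjusted p = 0.873, 0.879 and 0.668). The ligand-binding chain gene Gp1ba had 13.9 and 5.09 CPM in NPMc_Flt3ITD and 21.9 and 14.9 CPM in Flt3ITD, against 18.9 and 17.7 CPM in Mx. Gp5 had 59.7 and 21.0 CPM in NPMc_Flt3ITD and 49.1 and 24.1 CPM in Flt3ITD, against 31.7 and 17.0 CPM in Mx. Neither passed in any comparison (limma adjusted p of at least 0.257), and so no gene of the 4-part receptor did.

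Plek encodes pleckstrin, the main protein that protein kinase C phosphorylates in activated platelets, which is also abundant in leukocytes. Plek had 412 and 246 CPM in NPMc_Flt3ITD and 105 and 109 CPM in Flt3ITD, against 121 and 93.8 CPM in Mx. Both NPMc_Flt3ITD libraries lay above the other 4, which covered a narrow range. The mean was 329 ± 117 CPM in NPMc_Flt3ITD and 107.2 ± 3.04 CPM in Flt3ITD, against 107.2 ± 19.0 CPM in Mx (SD, n = 2 each). In NPMc_Flt3ITD against Mx this was 3.07-fold, a log2 fold change of 1.57 ± 0.25 (SE; 95% interval 1.01 to 2.14, limma adjusted p = 0.0222). In NPMc_Flt3ITD against Flt3ITD the log2 fold change was 1.56 ± 0.25 (SE; 95% interval 0.996 to 2.13, limma adjusted p = 0.0257). Flt3ITD against Mx gave 0.01 (95% interval -0.55 to 0.58, limma adjusted p = 0.985). The call against Mx was lost without either Mx library or without NPMc_Flt3ITD replicate 1, and the call against Flt3ITD without either Flt3ITD library or without NPMc_Flt3ITD replicate 1. The adjusted p then reached 0.162 and 0.191, with the log2 fold change between 1.19 and 1.75 in these fits. The macrophage and monocyte list summed to between 343 and 455 CPM in NPMc_Flt3ITD and 170 and 418 CPM in Flt3ITD, against 268 and 283 CPM in Mx, with 15 of 16 genes listed and C1qc, Cd5l and Siglec1 at 0 in at least 3 libraries. Most of this sum was Lyz2, with 269 and 349 CPM in NPMc_Flt3ITD and 159 and 309 CPM in Flt3ITD, against 242 and 255 CPM in Mx. The neutrophil list, listed in full, summed to between 1095 and 1299 CPM in NPMc_Flt3ITD and 390 and 1925 CPM in Flt3ITD, against 345 and 431 CPM in Mx. Much of this sum in the mutants was Mpo, which is also in the list of multipotent progenitors. Mpo had 631 and 432 CPM in NPMc_Flt3ITD and 254 and 848 CPM in Flt3ITD, against 54.7 and 120 CPM in Mx. S100a8, a gene of mature neutrophils, had 31.6 and 210 CPM in NPMc_Flt3ITD and 3.74 and 269 CPM in Flt3ITD, against 68.2 and 28.1 CPM in Mx. The part of these cell types in the level of Plek was not tested. Cnrip1, a gene that overlaps Plek on the opposite strand, had 9.20 and 4.39 CPM in NPMc_Flt3ITD and 6.76 and 11.2 CPM in Flt3ITD, against 29.8 and 26.7 CPM in Mx, an order unlike that of Plek.

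**Figure D2:**
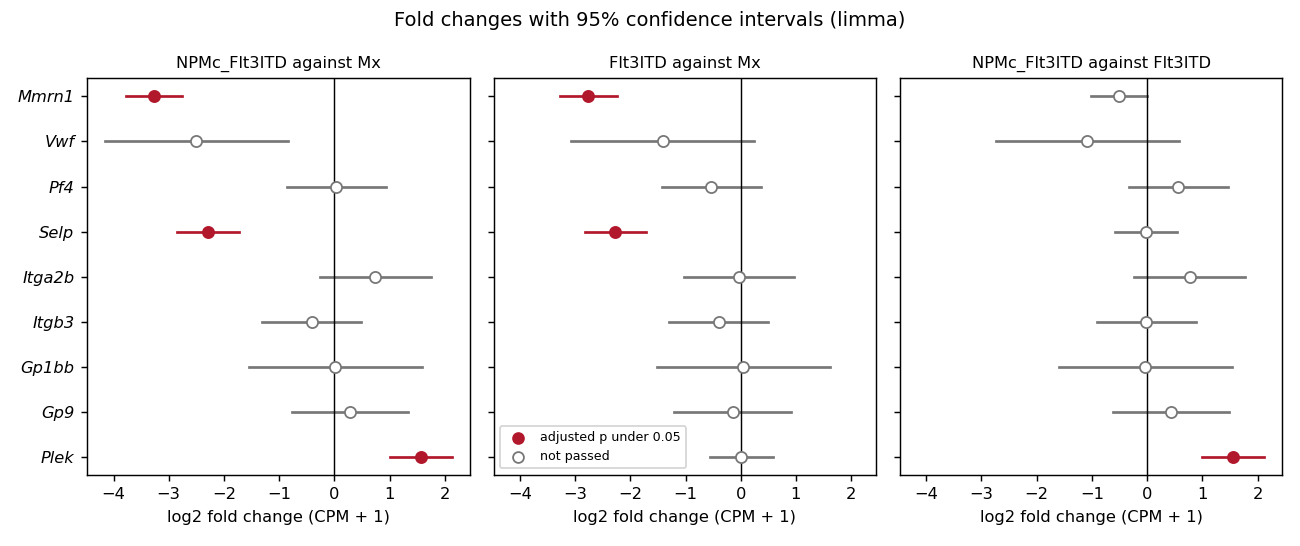
Log2 fold changes on log2(CPM + 1) (horizontal axes) with 95% confidence intervals from limma for the 9 genes, filled red where the adjusted p was under 0.05. Mmrn1 and Selp are filled on the negative side in both comparisons with Mx, and Plek on the positive side in both comparisons of NPMc_Flt3ITD.

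Counted over the 9 members, 2 fell and 1 rose in NPMc_Flt3ITD against Mx, where 1.17% of all tested genes passed (0.656% lower and 0.514% higher). Against Mx, Flt3ITD had 2 that fell and none that rose, where 4.55% of all tested genes passed (2.43% lower and 2.12% higher). In NPMc_Flt3ITD against Flt3ITD, 1 rose and none fell, where 1.18% passed (0.901% lower and 0.277% higher). The median log2 fold change of the members was 0.02 in NPMc_Flt3ITD against Mx, -0.40 in Flt3ITD against Mx and -0.01 in NPMc_Flt3ITD against Flt3ITD, beside medians over all tested genes of 0.01, 0.0051 and 0.03. With the replicate block, 5 members passed in NPMc_Flt3ITD against Mx (5.44% of all genes), 2 in Flt3ITD against Mx (18.5%) and 2 in NPMc_Flt3ITD against Flt3ITD (12%), the added ones being Vwf and Itga2b in the first and Itga2b in the last. With no filter on low values, Mmrn1 in NPMc_Flt3ITD against Mx was the only call left (Selp there had a limma adjusted p of 0.0549, and Plek 0.122). Without the block, edgeR on the recovered reads called the same 3, 2 and 1 members as limma (0.822%, 2.38% and 0.727% of all genes), and so did DESeq2 (4.35%, 11.8% and 8.04% of the genes it gave an adjusted p). Libraries did not overlap between the groups for 4 members in NPMc_Flt3ITD against Mx, 5 in Flt3ITD against Mx and 2 in NPMc_Flt3ITD against Flt3ITD. The same was so for 42.5%, 53.8% and 48.2% of all tested genes, so the members' shares were near or below the background.

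The 2 libraries of a genotype often differed, and for the receptor genes Itga2b, Gp1bb and Gp9, though not Itgb3, in the same sense. Replicate 1 was above replicate 2 in all 3 genotypes for 5 members, Mmrn1, Vwf, Itga2b, Gp1bb and Gp9, beside 20.8% of all tested genes. For Gp1bb replicate 1 was 5.18 times replicate 2 in NPMc_Flt3ITD, 3.27 times in Flt3ITD and 2.26 times in Mx. For Itga2b the ratios were 2.47 in NPMc_Flt3ITD, 1.79 in Flt3ITD and 1.72 in Mx, and for Gp9 they were 2.27, 1.25 and 2.41 in the same genotypes. Selp ran the other way in all 3 genotypes, at 0.668, 0.770 and 0.936, beside 21.2% of all tested genes. Pf4, Itgb3 and Plek had no common order. The summed level of the genes that define mature megakaryocytes moved with this order: replicate 1 had 160.2 CPM and replicate 2 had 85.9 CPM in NPMc_Flt3ITD and 119.8 and 79.9 CPM in Flt3ITD, against 137.8 and 98.4 CPM in Mx. Most of this sum was F2rl3 and Gp5, while Tubb1, Clec1b and P2ry12 had no common order. The order was not particular to these genes. It held in all 3 genotypes for the sums of erythroid genes and of mast cell and basophil genes. The same was so for the platelet receptor, agonist receptor, signalling, transcription factor and relatives lists. The summed level of the 12 genes of B and plasma cells ran against it, with 51.4 CPM in replicate 1 and 312 CPM in replicate 2 of NPMc_Flt3ITD, 48.2 and 272 CPM in Flt3ITD, against 94.7 and 470 CPM in Mx. Most of the replicate 2 sum in the mutants was the plasma cell gene Igj, with 241.5 CPM in NPMc_Flt3ITD and 235.4 CPM in Flt3ITD, against 82.3 CPM in Mx. The macrophage and monocyte sum and the multipotent progenitor sum were also higher in replicate 2 of all 3 genotypes. The labels do not say what a replicate number shares, and the part of cell makeup in these differences was not tested.

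**Figure D3:**
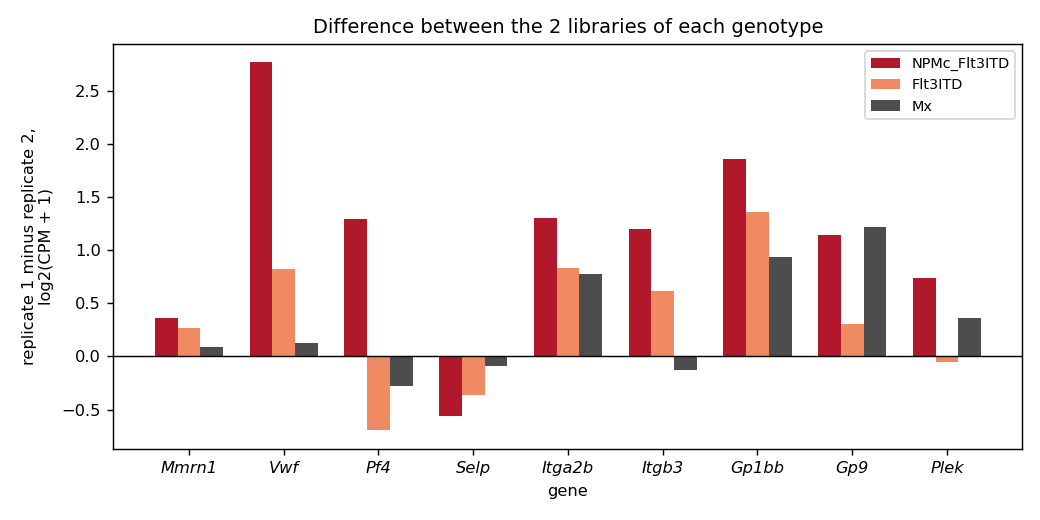
Difference between the libraries of a genotype (replicate 1 minus replicate 2, on log2(CPM + 1), vertical axis) for the 9 genes, with 1 bar per genotype. Itga2b, Gp1bb and Gp9 have 3 positive bars and Selp 3 negative ones, and the tallest bar is Vwf in NPMc_Flt3ITD, where replicate 1 was 8.68 times replicate 2.

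Over the 6 libraries, the levels of Mmrn1 and Selp had a Pearson r of 0.954 with each other, those of Mmrn1 and Vwf 0.791, and those of Vwf and Itgb3 0.863, each on log2(CPM + 1). Itga2b had an r of 0.890 with Gp9 and 0.805 with Gp1bb, and Gp1bb had 0.812 with Gp9, while the chains of the fibrinogen receptor, Itga2b and Itgb3, had 0.490. These values are descriptions over 6 libraries that share 3 genotypes and 2 replicate numbers. Among 10190 other genes with a mean of at least 5 CPM, those most like Mmrn1 were Als2cl (r = 0.999) and Dusp6 (0.997). Such r are the highest over many genes on 6 libraries, so every member reaches a high value, and r ignores the size of a change. In Flt3ITD against Mx the log2 fold change was -0.75 for Als2cl (limma adjusted p = 0.13) and -1.86 for Dusp6 (limma adjusted p = 0.00728). For Mmrn1 it was -2.76. Most like Selp were Fam134b (0.998) and Cldn12 (0.989), and most like Vwf were Gphn (0.998) and Cttn (0.992). Most like Plek were Slc28a2 (0.997) and Sun2 (0.991). For the others the nearest were Pafah2 (0.989) and Rdh14 (0.985) for Pf4, Zfp90 (0.988) and Hmha1 (0.986) for Itga2b, Tlr4 (0.992) and Zfp213 (0.982) for Itgb3, Hars2 (0.993) and Zik1 (0.988) for Gp1bb, and Cnnm4 (0.988) and Vps37b (0.986) for Gp9.

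The 5 further lists held 120 other megakaryocyte and platelet genes, of which 119 were listed and 107 tested. Of the 107, 13 fell in Flt3ITD against Mx (12.1%, beside 2.43% of all tested genes) and none rose, with a median log2 fold change of -0.22. With edgeR 8 fell and none rose, with DESeq2 24 fell and 3 rose, with the replicate block 32 fell and 6 rose, and without a filter on low values limma called none. Of all tested genes, edgeR called 2.38% (45.85% of them higher), DESeq2 11.8% (50.5% higher) and the block 18.5% (55.62% higher). Limma without a filter called 0 of all genes. In NPMc_Flt3ITD against Mx 3 fell (beside 0.656% of all tested genes) and 1 rose (beside 0.514%), with a median of 0.02. The split depended on the fit: edgeR called 2 lower and none higher, DESeq2 6 lower and 7 higher, and the replicate block 8 lower and 12 higher. Of all tested genes, edgeR called 0.822% there (48.08% of them higher), DESeq2 4.35% (40% higher) and the block 5.44% (48.19% higher). In NPMc_Flt3ITD against Flt3ITD none passed in limma, where 1.18% of all tested genes did. The list median there was 0.40, beside 0.03 over all tested genes. Of the 107, 38 had an unadjusted limma p under 0.05, and 34 of these were higher. The same level was reached by 2384 of all 12657 tested genes. With the replicate block 27 of the 107 rose and 1 fell in that last comparison, DESeq2 called 16 higher and none lower, and edgeR called 0 higher and 0 lower. Of all tested genes, the block called 12% (40.85% of them higher) and DESeq2 8.04% (39.63% of them higher). The 13 calls in Flt3ITD against Mx were lost without Mx replicate 1, without Mx replicate 2 or without Flt3ITD replicate 1, and 5 genes passed without Flt3ITD replicate 2. The list median then lay between -0.31 and -0.24, and the calls over all genes fell to 0, 46, 4 and 252 in these fits. The 4 calls in NPMc_Flt3ITD against Mx did not all hold when any library of these genotypes was left out. The list median was then 0.12 without Mx replicate 1 and -0.08 without Mx replicate 2. It was -0.11 without NPMc_Flt3ITD replicate 1 and 0.20 without NPMc_Flt3ITD replicate 2.

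Of 17 tested genes for other platelet receptors, 2 fell and 1 rose in NPMc_Flt3ITD against Mx and 3 fell in Flt3ITD against Mx. Of all tested genes, 0.656% fell and 0.514% rose in the first comparison, and 2.43% fell in the second. Esam, a junction protein of platelets and endothelium that also marks stem cells, had 42.0 and 41.2 CPM in NPMc_Flt3ITD and 51.0 and 51.7 CPM in Flt3ITD, against 143 and 138 CPM in Mx (log2 fold change -1.73 in NPMc_Flt3ITD and -1.43 in Flt3ITD, limma adjusted p = 0.00326 and 0.00773). Jam3, a junctional adhesion molecule, had 3.33 and 4.31 CPM in NPMc_Flt3ITD and 4.73 and 3.83 CPM in Flt3ITD, against 15.5 and 21.2 CPM in Mx (log2 fold change -1.997 in NPMc_Flt3ITD and -1.862 in Flt3ITD, limma adjusted p = 0.0338 and 0.0293). F11r, another adhesion molecule of that family, fell by 1.54 on the log2 scale in Flt3ITD against Mx (limma adjusted p = 0.0122). For both Esam and Jam3 all 4 mutant libraries lay below both Mx libraries. Sema4d, a semaphorin of platelets and lymphocytes, rose in NPMc_Flt3ITD against Mx, with 126 and 141 CPM in NPMc_Flt3ITD and 110 and 93.9 CPM in Flt3ITD, against 71.8 and 68.3 CPM in Mx (log2 fold change 0.92, limma adjusted p = 0.0458). In that comparison edgeR called 1 of the 17 lower and 0 higher (0.822% of all tested genes called). Limma with a pseudocount of 0.1 or without a filter on low values also called 1 lower and 0 higher, so Sema4d did not pass in these fits.

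Of 27 tested granule cargo and enzyme genes, 1 fell in NPMc_Flt3ITD against Mx (beside 0.656% of all tested genes) and 3 fell in Flt3ITD against Mx (beside 2.43%). Ptgs1, the cyclooxygenase that starts thromboxane synthesis in platelets, had 30.0 and 24.1 CPM in NPMc_Flt3ITD and 36.04 and 35.9 CPM in Flt3ITD, against 119 and 98.1 CPM in Mx (log2 fold change -1.97 in NPMc_Flt3ITD and -1.56 in Flt3ITD, limma adjusted p = 0.00418 and 0.011). Tbxas1, the thromboxane synthase, and Rab27b, a small GTPase of granule release, fell in Flt3ITD against Mx by 1.29 and 1.24 on the log2 scale (limma adjusted p = 0.0237 and 0.0374). Ppbp, the precursor of a platelet chemokine encoded near Pf4, had 5.01 and 1.16 CPM in NPMc_Flt3ITD and 1.05 and 1.30 CPM in Flt3ITD, against 3.08 and 2.07 CPM in Mx and did not pass in any comparison.

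Of 31 tested signalling and cytoskeleton genes, none passed in NPMc_Flt3ITD against Mx, where 1.17% of all tested genes did. In Flt3ITD against Mx 5 fell (beside 2.43% of all tested genes). Of the 31, edgeR called none in that comparison, limma 1 with a pseudocount of 0.1 and none without a filter, DESeq2 8 lower, and the replicate block 10 lower and 1 higher. Of all tested genes, edgeR called 2.38%, DESeq2 11.8% and the block 18.5% there. Sdpr, a caveolar protein, had 15.6 and 5.58 CPM in NPMc_Flt3ITD and 10.2 and 9.73 CPM in Flt3ITD, against 45.6 and 40.7 CPM in Mx, with a log2 fold change of -2.01 in Flt3ITD against Mx (limma adjusted p = 0.0371). Plcg2, a phospholipase downstream of collagen receptors, Rap1b, the GTPase that leads to integrin activation, and Pik3cg, a phosphoinositide kinase, fell by 0.77, 0.79 and 0.74 on the log2 scale in Flt3ITD against Mx (limma adjusted p = 0.0418, 0.046 and 0.0474). The changes of these last 3 genes were smaller than those of Mmrn1 and Selp.

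Of 21 transcription factor genes, Ets1 alone passed, falling by 1.83 on the log2 scale in Flt3ITD against Mx (limma adjusted p = 0.0186). In that comparison 2.43% of all tested genes fell. Gata1, the main factor of megakaryocytes and red cells, had 115 and 36.4 CPM in NPMc_Flt3ITD and 185 and 137 CPM in Flt3ITD, against 57.0 and 36.8 CPM in Mx. Its log2 fold change of 1.77 in Flt3ITD against Mx did not pass (limma adjusted p = 0.0645), but did with the replicate block (0.00115), and the -1.28 in NPMc_Flt3ITD against Flt3ITD likewise (0.179, and 0.00837 with the block). Genes of the erythroid list, 15 of 16 listed, summed to between 768 and 1238 CPM in NPMc_Flt3ITD and 4012 and 4355 CPM in Flt3ITD, against 1386 and 1459 CPM in Mx, and the part of red cell precursors in the level of Gata1 was not tested.

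Fli1, an ETS factor that acts at many megakaryocyte promoters, had 239 and 161 CPM in NPMc_Flt3ITD and 129 and 139 CPM in Flt3ITD, against 258 and 227 CPM in Mx. The log2 fold change of -0.85 in Flt3ITD against Mx did not pass (limma adjusted p = 0.0566, and 0.00512 with the block). Nfe2, a factor of platelet formation, had 388 and 318 CPM in NPMc_Flt3ITD and 228 and 227 CPM in Flt3ITD, against 219 and 213 CPM in Mx. Both NPMc_Flt3ITD libraries were the highest, with log2 fold changes of 0.70 against Mx and 0.62 against Flt3ITD (limma adjusted p = 0.0997 and 0.103, and 0.00895 and 0.0109 with the block). Runx1 had 232 and 171 CPM in NPMc_Flt3ITD and 128 and 133 CPM in Flt3ITD, against 176 and 135 CPM in Mx, and its 0.61 in NPMc_Flt3ITD against Flt3ITD passed with the block alone (limma adjusted p = 0.156, and 0.0229 with it).

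**Figure D4:**
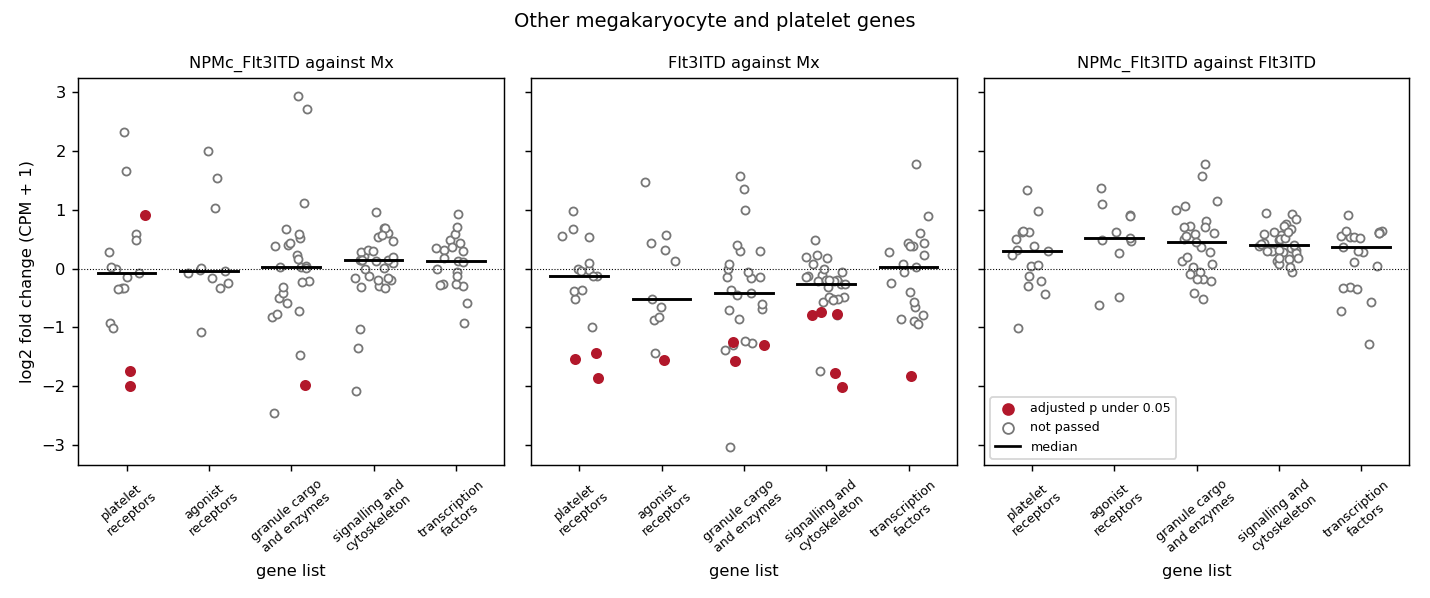
Log2 fold changes on log2(CPM + 1) (vertical axis) of the 107 other tested megakaryocyte and platelet genes by list, 1 point per gene, filled red where limma's adjusted p was under 0.05; horizontal bars are list medians. Filled points are 4 in NPMc_Flt3ITD against Mx, 13, all negative, in Flt3ITD against Mx, and none in NPMc_Flt3ITD against Flt3ITD.

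Of 13 tested relatives of the members, such as other selectins, integrins and EMILIN proteins, 2 rose in NPMc_Flt3ITD against Mx (beside 0.514% of all tested genes) and 1 in Flt3ITD against Mx (beside 2.12%). Emilin2, an extracellular matrix protein of the family that Mmrn1 belongs to, moved against Mmrn1, with 80.3 and 106 CPM in NPMc_Flt3ITD and 137 and 77.6 CPM in Flt3ITD, against 16.0 and 19.1 CPM in Mx (log2 fold change 2.33 in NPMc_Flt3ITD and 2.49 in Flt3ITD, limma adjusted p = 0.00802 and 0.00773). Itgal, the alpha chain of a leukocyte integrin, rose by 1.47 on the log2 scale in NPMc_Flt3ITD against Mx (limma adjusted p = 0.0472). None of the relatives passed in NPMc_Flt3ITD against Flt3ITD, where 1.18% of all tested genes did.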

How the data were processed

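Polyadenylated RNA of sorted LT-HSC was measured in 6 libraries. The submitters' processing notes name the build mm9, edgeR 3.20.7, HTSeq 0.6.1p1, TopHat2 2.1.0 with Bowtie2 2.2.4, SAMtools 0.1.18 and CASAVA 1.8, and strand setting and annotation are not stated there. The deposited signal values are normalised CPM from edgeR, per the file headers; all 107982 were whole multiples of their column's smallest value within 0.01 reads, so whole reads were recovered, 15618802 to 37038893 per library. Amplified reads without molecular identifiers are not independent molecules.

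In R 4.3.3, limma 3.58.1 with an intensity trend was fitted to log2(CPM + 1) over all 6 libraries, group as the only term, 12657 genes with at least 1 CPM in at least 2 libraries (5340 removed), residual degrees of freedom 3 (8.67 after moderation), two-sided, calls at Benjamini-Hochberg adjusted p under 0.05 over all tested genes. The script was tested on simulated data. Alternatives were other pseudocounts, filters and scalings, edgeR 4.0.16 and DESeq2 1.42.0 on recovered reads (edgeR called 104 genes in NPMc_Flt3ITD against Mx, 301 in Flt3ITD against Mx and 92 between the mutants), a replicate block and leaving out each library. Same-numbered libraries deviated together from their group means (r = 0.34, 0.32 and 0.26 over 12657 genes for NPMc_Flt3ITD with Flt3ITD, NPMc_Flt3ITD with Mx and Flt3ITD with Mx), so the block is given where it changes a call; this pairing is read from the values, not the labels.

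The members and gene lists were chosen with earlier results of these data known. Named genes were all members, up to 4 called genes per list, direction and comparison with the smallest p, Gp1ba, Gp5, Ppbp, Gata1, Fli1, Nfe2 and Runx1, and the 2 genes most like each member; Cnrip1 and Sept5 were named for overlapping a member. A gene that the rule also names is not reported here. The marker lists also included T and NK cells (379 to 395 CPM summed in NPMc_Flt3ITD, 204 to 270 in Flt3ITD, 100 to 151 in Mx) and mast cells and basophils (202 to 288, 80.6 to 104 and 24.1 to 26.1 in the same order). Promoters are RefSeq's (GRCm38.p6), not the files' build, and overlaps come from GENCODE vM21 names.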

Additional observations from a re-analysis of the deposited data

Results flagged for a closer look

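The effect on Plek differed between the mutant genotypes. It was 1.57 on the log2 scale in NPMc_Flt3ITD against Mx and 0.01 in Flt3ITD against Mx, and the test of the difference itself, NPMc_Flt3ITD against Flt3ITD, gave 1.56 (limma adjusted p = 0.0257). Plek was the only member whose difference between the mutants passed that test without the replicate block. With it Itga2b passed too.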

How the results depend on the processing

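Over the 9 members, 3 comparisons and 14 alternatives, 360 values kept their side of the threshold, 14 lost their call and 4 gained one. None of the called values changed sign, while 37 of the 360, none of them called, did. Mmrn1 in NPMc_Flt3ITD against Mx passed under all 14 (limma, edgeR or DESeq2 adjusted p at most 0.0308). Counts of genes called moved more. In Flt3ITD against Mx, 576 in all became 375 with a pseudocount of 0.1, 0 in limma without a filter on low values (3285 at an unadjusted p under 0.05), 301 with edgeR, 1489 with DESeq2, 2341 with the replicate block and 0 to 314 with a library left out (0 without Mx replicate 1, where 1968 had an unadjusted p under 0.05). In NPMc_Flt3ITD against Mx, 148 became 27 without a filter, 550 with DESeq2, 689 with the replicate block and 20 to 168 with a library left out. In NPMc_Flt3ITD against Flt3ITD, 149 became 0 in limma without a filter (2586 at an unadjusted p under 0.05), 92 with edgeR, 1017 with DESeq2, 1513 with the replicate block and 24 to 108 with a library left out. Members called in Flt3ITD against Mx went to 0 without a filter (2 at an unadjusted p under 0.05; edgeR and DESeq2, with a filter, called 2) and ranged from 0 to 2 with a library left out. In NPMc_Flt3ITD against Mx they numbered 1 without a filter, 5 with the replicate block and 2 to 3 with a library left out. In NPMc_Flt3ITD against Flt3ITD they numbered 0 without a filter (2 at an unadjusted p under 0.05; edgeR and DESeq2 called 1), 2 with the replicate block and 0 to 1 with a library left out. The replicate block changed no call of a member but those of Vwf and Itga2b. Where a library is left out, the lone one is assumed to vary like the other groups. CPM rescaled to the recovered totals shifted the median of all genes to -0.10 in Flt3ITD against Mx and -0.11 in NPMc_Flt3ITD against Mx; 28.8% of 624 calls were then higher in the first, beside 46.5% of 576, and 32.8% of 204 in the second, beside 43.9% of 148. Rescaling drops the scaling to effective library size. That size was 0.985 and 1.10 of the recovered total in Mx replicates 1 and 2. It was 0.975 and 0.946 in Flt3ITD and 0.969 and 0.934 in NPMc_Flt3ITD. Why these factors differ was not tested, nor was the cause of the changed counts.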
